A study of Homo sapiens with 3 samples.

Results

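LIN28A, LIN28B, HMGA1, HMGA2, IGF2BP1, IGF2BP2 and IGF2BP3 are oncofetal regulators, genes that are active in embryonic cells and reappear in many tumours. They were taken by symbol from the 3 deposited count matrices, which held all 7 among 31113 gene symbols. The cells were H9, an established human embryonic stem cell line, profiled as single cells in droplets (inDrop, TruDrop protocol), where each captured RNA is tagged with a unique molecular identifier (UMI). Of the 3 libraries, 1 each carries the label day 0, day 2 and day 6 for the time spent on the path to neural progenitors in the STEMdiff SMADi Neural Induction Kit. The stem cell medium mTeSR is named as growth medium for all 3. Each day had 1 library, so no difference between libraries has a replicate check or a test. The labels add the letters A, B and A to the days without explaining them.

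LIN28A and LIN28B are RNA-binding proteins that grip let-7 precursors and block the maturation of let-7, a family of small regulatory RNAs. LIN28A is known to hold the loop of the hairpin precursor and to call in enzymes that tail and destroy it. Mature let-7 in turn pairs with target sites in messenger RNAs, among them those of the LIN28, HMGA and IGF2BP genes, and lowers their output. HMGA1 and HMGA2 are small chromatin proteins that bind AT-rich DNA through AT hooks, and the 3 IGF2BP proteins bind messenger RNAs and stabilise many of them, the IGF2 message and m6A-modified transcripts included. In neural development these genes are known from early progenitors, where they are tied to growth and to the timing of neurogenesis.

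Marker genes went against the labels. PAX6, a neural progenitor transcription factor, was at 175.5, 6.64 and 27.9 counts per 1000000 summed UMIs (CPM) in the day 0-, day 2- and day 6-labelled libraries. POU5F1, a pluripotency factor, was at 2.22, 1229 and 268 CPM in the same order. For labelled day 2 over day 0, 8 of 10 measured pluripotency markers were 2-fold higher or more and 9 of 9 measured neural progenitor markers stood at 0.5 times or less, with TDGF1, a pluripotency marker, at 0 UMIs in the library labelled day 0. The summed pluripotency markers stood at 962, 3705 and 2501 CPM and the summed neural progenitor markers at 1010.5, 153 and 966 CPM. The near-equal neural sums of the day 0- and day 6-labelled libraries hide differences between genes. For labelled day 6 over day 0, 5 of 9 neural progenitor markers were at 0.5 times or less and 2 were 2-fold higher or more. Their median log2 ratio was -1.65. The libraries are therefore called by their labels only, and no value below is read as a change over time. After filtering there were 2290, 2419 and 4180 cells with 28341741, 20626135 and 41268018 UMIs, and the median cell had 8770, 3814 and 4429 UMIs. Kept cells of different libraries shared 38 to 82 barcodes in each pair of libraries.

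The let-7 sequences are shown because they connect the members with one another. All 9 mature let-7 and miR-98 RNAs in the RefSeq table for GRCh38.p14 carried the same seed at bases 2 to 8, in capitals below, and differed in the other bases.
let-7a-5p: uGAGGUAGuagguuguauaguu
let-7d-5p: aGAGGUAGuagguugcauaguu
let-7g-5p: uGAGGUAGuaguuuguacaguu
miR-98-5p: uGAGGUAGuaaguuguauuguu

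LIN28 proteins are known to recognise the letters GGAG in the loop of let-7 precursors. Those letters, searched on the RNA strand between the annotated mature arms (to the end of the hairpin where only the 5′ arm is annotated), were present in 9 of 12 let-7 and miR-98 hairpins, against 69 of 798 human hairpins that could be searched in this way, or 8.65%. The hairpins of let-7a-3, let-7b and miR-98 lacked them. The pair below shows a hairpin with GGAG in capitals, at chr9:94175957-94176036 on the plus strand, and one without, at chr22:46113686-46113768 on the plus strand.
let-7a-1 hairpin: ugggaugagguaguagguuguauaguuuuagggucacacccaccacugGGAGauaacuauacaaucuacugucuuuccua
let-7b hairpin: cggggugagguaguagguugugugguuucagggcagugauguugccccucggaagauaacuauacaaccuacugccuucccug

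The complement of the seed, CTACCTC, was then searched on the transcript strand of the annotated 3′ UTR of each member, taking for every gene the principal GENCODE v29 transcript with the longest 3′ UTR. All 7 members held at least 1 match, 16 in total, against 8.59% of 18909 genes. The members are textbook let-7 targets, so the matches describe the transcripts and are no independent finding. An A after the 7 letters, which makes the longer 8-base match, followed 9 of the 16. The match nearest to the stop codon of each member is given with the 14 bases before it, matching bases in capitals, in hg38 coordinates.
LIN28A, chr1:26427349-26427370, plus strand: cacagcctattgaaCTACCTCA
LIN28B, chr6:105078813-105078834, plus strand: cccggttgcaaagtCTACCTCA
HMGA1, chr6:34245830-34245851, plus strand: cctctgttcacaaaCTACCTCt
HMGA2, chr12:65963299-65963320, plus strand: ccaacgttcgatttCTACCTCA
IGF2BP1, chr17:49051062-49051083, plus strand: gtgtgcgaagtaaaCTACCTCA
IGF2BP2, chr3:185644220-185644241, minus strand: acacacagaagaagCTACCTCA
IGF2BP3, chr7:23311795-23311816, minus strand: gcatttttactcaaCTACCTCA

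LIN28B, HMGA2 and IGF2BP1 each held 4 matches, and the other 4 members held 1 each. Among genes whose 3′ UTR was 0.8 to 1.25 times as long, 0.233% of 1285 had as many as LIN28B, 0.0994% of 2013 as many as HMGA2 and 0.556% of 719 as many as IGF2BP1. With a single match, HMGA1, IGF2BP2, IGF2BP3 and LIN28A had company from 8.51%, 11.7%, 11.9% and 16.8% of genes of like length. The first match lay 21 bases after the stop codon in HMGA2 and 44 bases after it in LIN28B, whereas in IGF2BP1 it lay 1632 bases downstream in a 3′ UTR of 6206 bases. A match of letters is no measurement of binding, and the libraries hold no small RNAs.

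**Figure D1:**
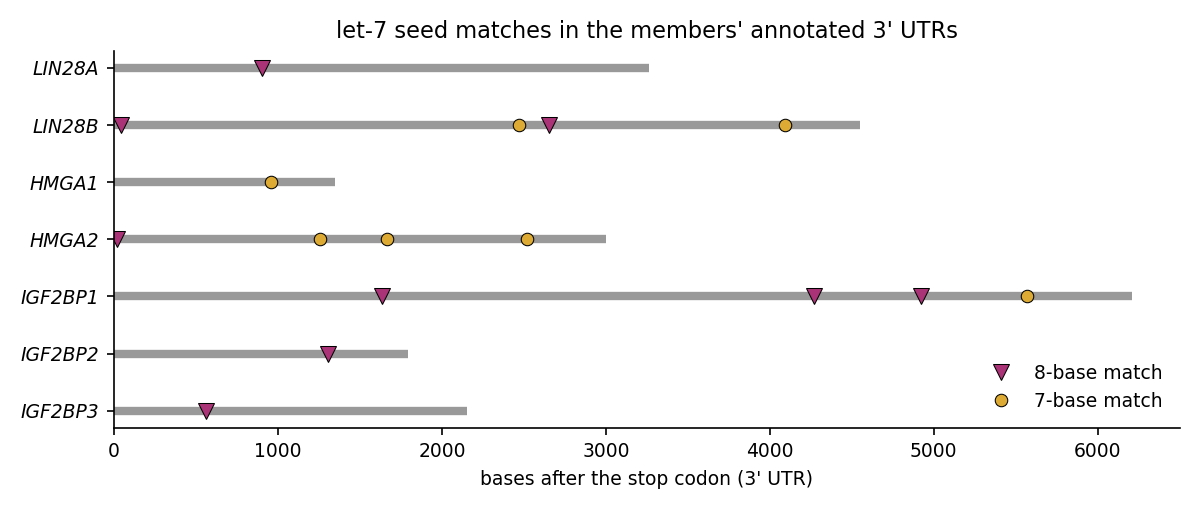
Positions of let-7 seed matches in the annotated 3′ UTRs of the 7 members, with bases after the stop codon on the x axis. Triangles mark 8-base and circles 7-base matches. LIN28B, HMGA2 and IGF2BP1 carry 4 matches each and the other members 1 each.

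The members lie on 6 chromosomes in GENCODE v29 (hg38). LIN28A is at chr1:26410778-26429722, LIN28B at chr6:104936616-105083332, HMGA1 at chr6:34236873-34246231, HMGA2 at chr12:65824131-65966295 and IGF2BP1 at chr17:48997412-49055650, all on the plus strand. IGF2BP2 at chr3:185643739-185825056 and IGF2BP3 at chr7:23310209-23470467 are on the minus strand. Counting by strand is not given in the sources used here, so reads from a member and from an overlapping gene on the other strand may not be separable. LIN28B-AS1 was at 8.93, 2.81 and 2.93 CPM and IGF2BP2-AS1 at 5.26, 3.05 and 5.36 CPM in the day 0-, day 2- and day 6-labelled libraries, while MALSU1, a mitochondrial ribosome assembly gene that overlaps the 3′ end of IGF2BP3, was at 61.3, 70.7 and 59.6 CPM. For HMGA2 the count matrices hold RP11-366L20.2, taken as a candidate antisense partner by its clone name, which the annotation used here does not tie to a position. It had 688, 113 and 731 UMIs, or 24.3, 5.48 and 17.7 CPM, and was lowest in the library labelled day 2, as HMGA2 was. Its part in the HMGA2 counts was not tested. HMGA1P4, a pseudogene copy of HMGA1, had 8, 6 and 14 UMIs.

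All 7 members passed 10 CPM, the level used here for a measured gene, in every library. No member differed 2-fold between any 2 libraries. For labelled day 2 over day 0, 0 of 7 members were 2-fold higher or more and 0 were at 0.5 times or less, against 10.1% and 10% of the 10574 measured genes. For labelled day 6 over day 2 the counts were again 0 and 0, against 8.39% and 6.25% of measured genes. The comparison of labelled day 6 with day 0 also gave 0 and 0, against 10.8% and 6.06%. Staying between 0.5 and 2 times in all 3 comparisons was the rule for 69.1% of measured genes, so 7 of 7 is a count near the background. The median log2 ratio of the members was -0.16, 0.34 and -0.01 in these comparisons, against 0.01, 0.12 and 0.12 for all measured genes. Intervals given with levels, ratios and shares are exact 95% intervals and cover counting error only. UMI counts were not divided by transcript length, so levels are compared between libraries and not between genes.

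LIN28A, the form of LIN28 typical of pluripotent cells, had the widest range of the 7. Its levels in the day 0-, day 2- and day 6-labelled libraries were 1039, 1037 and 1828 CPM. Over all kept cells, the first 2 libraries had overlapping counting intervals (1027 to 1051 and 1023 to 1051 CPM). Their POU5F1 levels lay at opposite ends of the range. The order of these 2 libraries changed with the mitochondrial share of the cells compared, as given below. The labelled day 6 over day 2 ratio was 1.76 (1.74 to 1.79), and 78.6% of measured genes had a ratio closer to 1. Over day 0 the ratio of labelled day 6 was likewise 1.76.

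LIN28B, the paralogue, was at 153, 117 and 151 CPM in the day 0-, day 2- and day 6-labelled libraries. It was lowest in the library labelled day 2, and the other 2 were within counting error of each other by summed UMIs, with a labelled day 6 over day 0 ratio of 0.993 (0.955 to 1.03). In cells thinned to 1000 UMIs that ratio was 0.806. Labelled day 2 over day 0 gave 0.767 (0.730 to 0.807). The 2 LIN28 genes thus had different orders of libraries: LIN28A stood apart in the library labelled day 6 and LIN28B in that labelled day 2.

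HMGA1 was at 920.5, 1304 and 1107 CPM in the 3 libraries in order of their labels. It was highest where POU5F1 was highest, with a labelled day 2 over day 0 ratio of 1.42 (1.39 to 1.44) and a labelled day 6 over day 2 ratio of 0.849 (0.836 to 0.862). HMGA2, better known from fetal tissue and neural stem cells, was lowest in that library, at 235, 168 and 221 CPM in order of the labels. Its order in the other 2 depended on the weighting of cells, with a labelled day 6 over day 0 ratio of 0.939 by summed UMIs, 1.05 in cells thinned to 1000 UMIs and 1.02 with CPM taken per cell and averaged over cells. The labelled day 2 over day 0 ratio of HMGA2 was 0.716 (0.687 to 0.746), and no counting interval of its 3 levels overlapped another.

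IGF2BP1 was at 126, 120.2 and 152 CPM in the day 0-, day 2- and day 6-labelled libraries. Those labelled day 2 and day 0 did not differ beyond counting error, with a ratio of 0.954 (0.906 to 1.005), and that labelled day 6 was 1.27 times that labelled day 2 (1.21 to 1.33). IGF2BP2 had the narrowest range of all members, at 253, 218 and 233 CPM, the highest of its levels being 1.16 times the lowest. IGF2BP3 was at 198, 177 and 137 CPM. Over all kept cells it was the only member with its lowest level in the library labelled day 6. There it was 0.692 times (0.667 to 0.718) the level of the library labelled day 0. Which library had the lowest level of IGF2BP3 changed with the mitochondrial share of the cells compared, as given below.

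**Figure D2:**
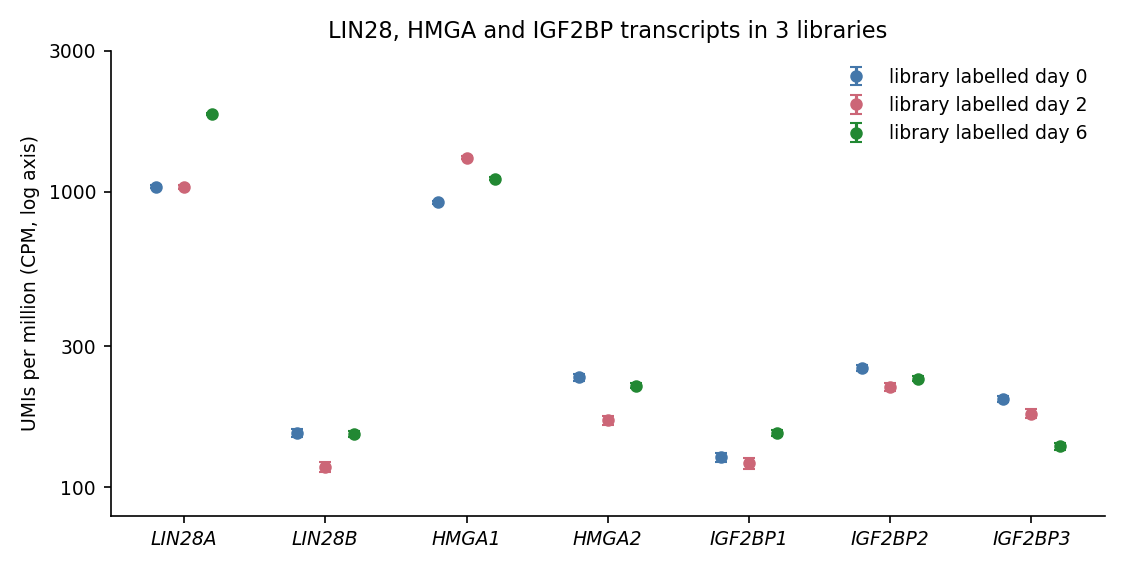
Level of each member in the 3 libraries, as CPM of the summed UMIs of kept cells on a log axis, with exact Poisson 95% intervals that cover counting error only. LIN28A stands at 1828 CPM in the library labelled day 6 against 1037 to 1039 CPM in the others, and IGF2BP2 stays between 218 and 253 CPM.

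**Figure D3:**
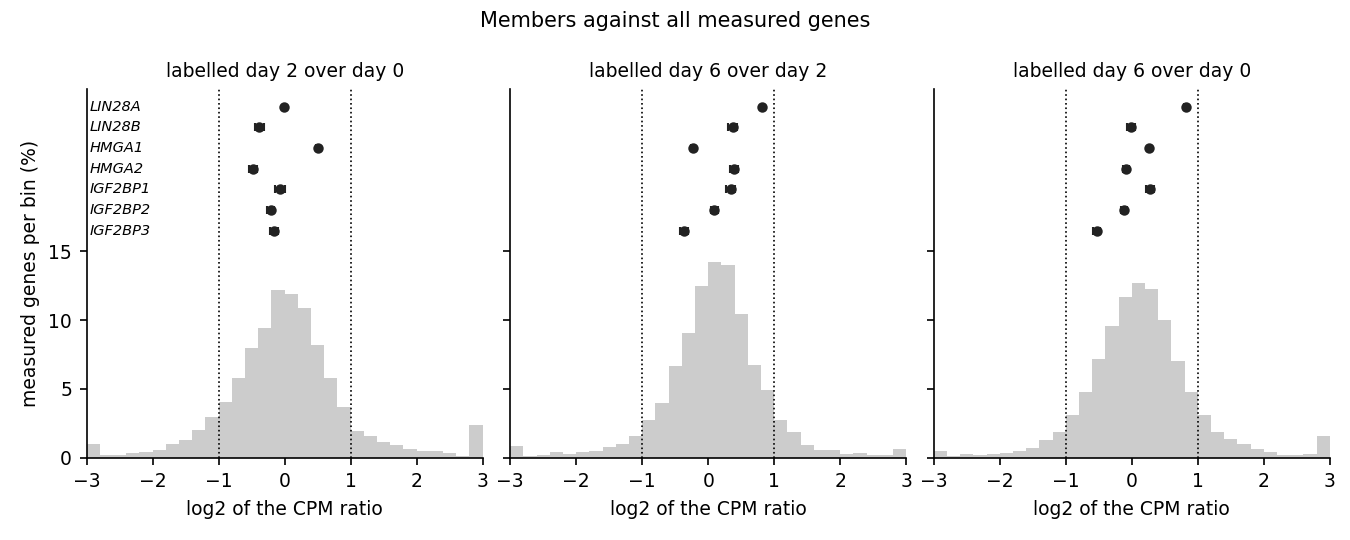
Log2 of the CPM ratio between 2 libraries for each member (points, with exact 95% intervals) above the distribution of all measured genes (grey, percent of genes per bin of 0.2, values beyond 3 placed in the end bins). Dotted lines mark 2-fold; all 7 members lie between them in each panel.

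Several members were found in the same cell. Of the 7, the median cell held UMIs of 6, 4 and 5 members in the day 0-, day 2- and day 6-labelled libraries, and all 7 were present in 35.9%, 13.6% and 22.7% of cells. None of the 7 was seen in 5, 7 and 8 cells of the 3 libraries. The shares with all 7 were in the same order as the median UMIs per cell. After thinning every cell to 1000 UMIs the median was 2 members in each library, 0 cells held all 7, and 6.03%, 4.30% and 1.96% of cells held none.

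Shares of cells with each member were therefore also taken after thinning. LIN28A was then found in 66.0%, 67.4% and 85.5% of cells, against 96.9%, 93.3% and 98.3% before thinning. HMGA1 was found in 62.0%, 76.1% and 69.3% of thinned cells. Both shares had the same order of libraries as the CPM, save that LIN28A in the libraries labelled day 2 and day 0 was within counting error. HMGA2 was found in 22.2%, 16.2% and 22.3% of thinned cells and LIN28B in 14.9%, 9.34% and 11.7%, where the intervals of the day 6- and day 0-labelled libraries (10.8% to 12.7% and 13.5% to 16.4%) did not overlap. The shares of IGF2BP1 were 11.2%, 10.8% and 14.98%, and those of IGF2BP2 were 21.2%, 19.8% and 20.24%. IGF2BP3 was found in 14.9%, 7.28% and 7.66% of thinned cells, so by share the day 2- and day 6-labelled libraries lay close together and below the day 0-labelled one, while by CPM the labelled day 2 over day 0 ratio was 0.893. Before thinning, HMGA1 was found in 95.8%, 95.5% and 94.4% of cells and HMGA2 in 76.9%, 53.6% and 64.3%. The unthinned shares were 64.0%, 37.4% and 50.2% for LIN28B, 59.6%, 42.1% and 54.5% for IGF2BP1 and 77.7%, 57.3% and 60.7% for IGF2BP2. Without thinning, every member but HMGA1 had its lowest share in the day 2-labelled library, the one with the fewest UMIs per cell, IGF2BP3 included at 30.2%.

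Cells that lack these genes were not at hand in the cultures. As a background, 15 genes of other tissues, such as MYH6 and CFTR, were found in at most 0.131%, 0.124% and 0.191% of thinned cells. LIN28A made up 1443, 1073 and 2344 CPM of the UMIs in barcodes with under 500 UMIs, above its level in kept cells of each library. HMGA2, at 315, 164 and 259 CPM, was higher there than in kept cells save in the library labelled day 2. The other members were lower there than in kept cells of each library, such as IGF2BP3 at 113, 97.2 and 68.3 CPM. Whether such barcodes hold free RNA or shallow or damaged cells cannot be told from these values. The part of free RNA in the shares was not tested.

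**Figure D4:**
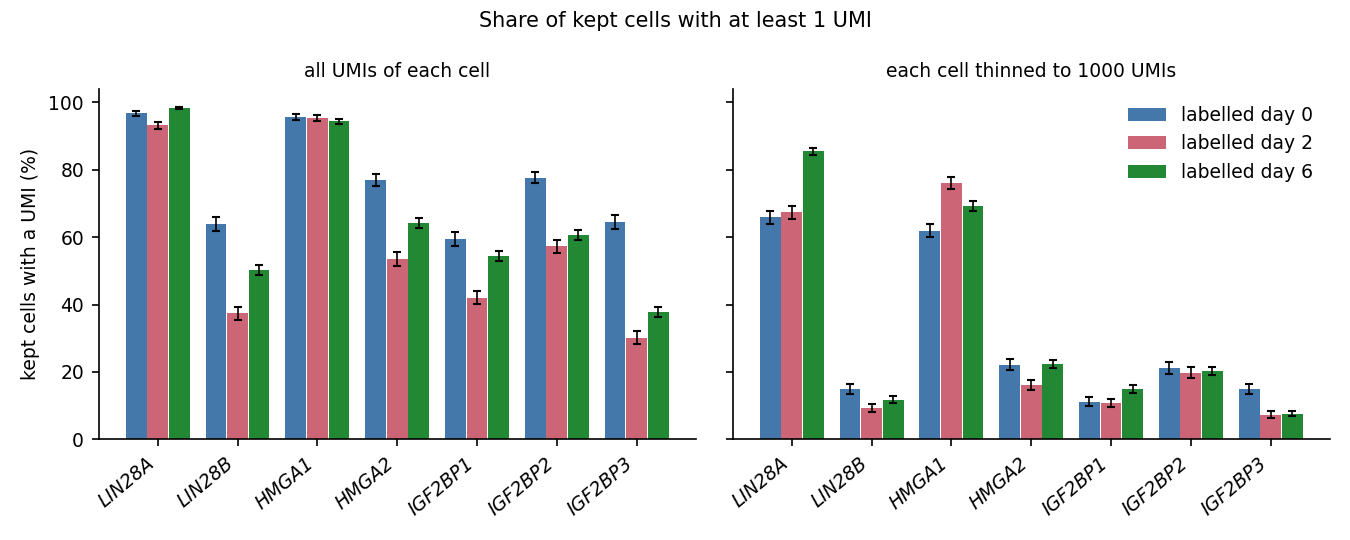
Percent of kept cells with at least 1 UMI of each member, from all UMIs (left) and after thinning each cell to 1000 UMIs (right), with exact Clopper-Pearson 95% intervals. LIN28A reaches 85.5% of thinned cells in the library labelled day 6, and IGF2BP3 is found in 14.9% of thinned cells labelled day 0 and in 7.28% and 7.66% of the others.

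IGF2BP3 was spread unevenly over the cells. The variation between cells beyond Poisson counting, as a coefficient of variation, was 51.4%, 107% and 59.9% for IGF2BP3 in the day 0-, day 2- and day 6-labelled libraries, and 22.0% to 54.0% for the other members. A UMI of it was found in 64.5%, 30.2% and 37.7% of all kept cells, where an even spread would put it in 73.9%, 54.6% and 52.1%.

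Among cells with 10 to 25% of their UMIs from mitochondrially encoded genes alone, the coefficient of variation of IGF2BP3 was still 49.0%, 73.9% and 50.2%. Unevenness was thus also present within a single mitochondrial band. It was not particular to IGF2BP3: in the same cells the other members had 18.7% to 46.1%, and the nuclear RNA MALAT1 had 56.5%, 73.8% and 77.1%.

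The level of IGF2BP3 also differed with the share of mitochondrially encoded UMIs in a cell. Cells with 5 to 25% mitochondrial UMIs had 207, 225 and 152 CPM of IGF2BP3 in the day 0-, day 2- and day 6-labelled libraries, against 70.5, 34.2 and 47.6 CPM in cells with under 5%. The ratios were 2.94 (2.47 to 3.53), 6.58 (5.65 to 7.70) and 3.19 (2.83 to 3.61). IGF2BP3 was the only member at least 2-fold higher in such cells, 1 of 7 in each library, while 10.2%, 11.4% and 7.61% of nuclear genes with at least 50 CPM were, so the count of 1 is near the background. By size, 156 of 3857, 37 of 3795 and 62 of 4010 such genes had a higher ratio. Depth moved with the split and its part in the result was not tested: the 1827, 1234 and 2532 cells with 5 to 25% had medians of 11763, 5904 and 8794.5 UMIs, against 2768, 3170 and 2479.5 UMIs in the 463, 1185 and 1648 cells with under 5%.

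LIN28A, HMGA1 and HMGA2 were lower in the same cells in every library. LIN28A was at 1002, 886 and 1704 CPM in cells with 5 to 25% mitochondrial UMIs, against 1575, 1489 and 2591 CPM in cells with under 5%. The ratios were 0.636, 0.595 and 0.658 for LIN28A, 0.619, 0.612 and 0.680 for HMGA1 and 0.658, 0.691 and 0.688 for HMGA2. The median nuclear gene was also lower, at 0.830, 0.792 and 0.828, and mitochondrial UMIs take part of the total in such cells. Without mitochondrial genes in the totals, LIN28A was at 0.722, 0.687 and 0.747 times and IGF2BP3 at 3.34, 7.59 and 3.62 times. LIN28B, IGF2BP1 and IGF2BP2 had ratios between 0.836 and 1.08, except LIN28B in the library labelled day 2 with 1.33 (1.20 to 1.47).

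Finer bands showed where the level of IGF2BP3 stepped up. IGF2BP3 was at 50.3, 29.6 and 41.9 CPM in cells with under 2% mitochondrial UMIs and at 139, 40.8 and 56.0 CPM from 2 to 5%. From 5 to 10% it was at 209.5, 163 and 159 CPM, and from 10 to 25% at 207, 236 and 149.8 CPM. The step fell between the bands below and above 5% in the libraries labelled day 2 and day 6. In that labelled day 0 the 2 to 5% band, with 134 cells, already lay between the extremes.

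**Figure D5:**
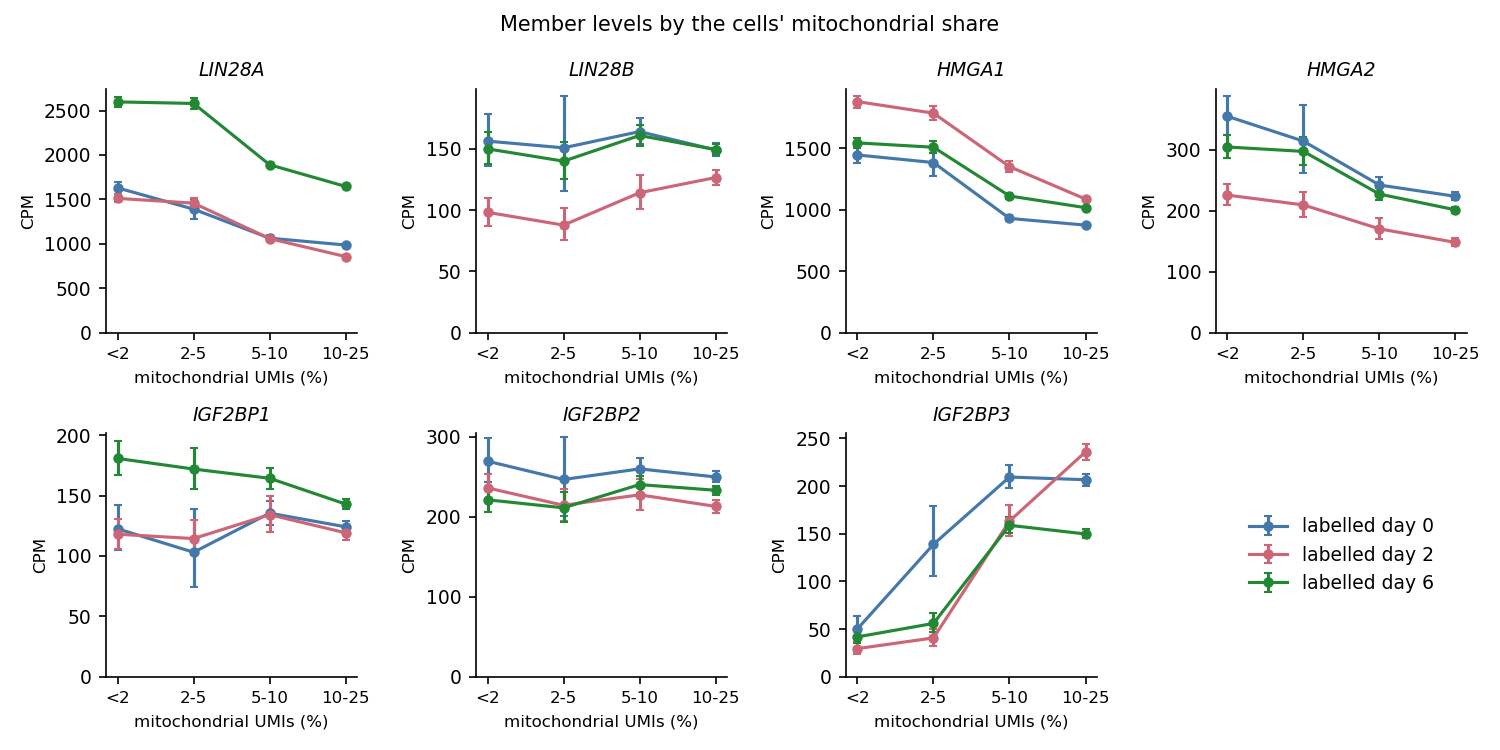
Level of each member in bands of the cells' mitochondrial UMI share, in CPM with exact Poisson 95% intervals, 1 line per library. IGF2BP3 lies at 29.6 to 50.3 CPM under 2% and at 149.8 to 236 CPM from 10 to 25%, while LIN28A, HMGA1 and HMGA2 are lower in the higher bands.

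Other features of the cells moved with the same split. MALAT1, a nuclear long noncoding RNA, was 2.44, 2.29 and 1.16 times as high in cells with 5 to 25% mitochondrial UMIs as in cells with under 5%. ACTB, a cytoplasmic message, was at 0.537, 0.548 and 0.621 times. Across genes, Spearman's rho between the length of a gene's genomic span and its ratio was 0.562 in 3728 genes, 0.511 in 3660 genes and 0.512 in 3877 genes; genes of 1 library share its cells and are not independent. Genes spanning 100 to 200 kb had median ratios of 1.23, 1.27 and 1.14, and genes under 20 kb 0.718, 0.713 and 0.757. IGF2BP3 spans 160.3 kb, and 19 of 584, 7 of 518 and 4 of 558 genes of 100 to 200 kb had a higher ratio. IGF2BP2, LIN28B and HMGA2 lie in the same range of spans, at 181, 147 and 142 kb, and were not 2-fold higher. MALSU1, on the strand opposite to IGF2BP3, had ratios of 0.955, 0.737 and 0.872. The part of nuclear or unspliced RNA and of cell damage in the IGF2BP3 difference was not tested.

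The order of libraries for IGF2BP3 rested on which cells were compared. Among cells with 10 to 25% mitochondrial UMIs, the labelled day 2 over day 0 ratio was 1.14, while among cells with at most 10% it was 0.427. The labelled day 6 over day 2 ratio was 0.635 in the first of these sets and 1.52 in the other. LIN28A kept its higher level in the library labelled day 6, with labelled day 6 over day 2 ratios of 1.92 and 1.61 in these sets. The labelled day 2 over day 0 ratio of LIN28A changed side, at 0.868 and 1.14 in these sets, against 0.998 over all kept cells.

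Splits by cell state gave member ratios near 1, as they did for nearly all genes. Cells with 2 or more UMIs of 15 mitotic genes among 1000 UMIs were compared with cells with none. The ratio was between 0.881 and 1.22 for every member in every library, and 2.49%, 1.15% and 1.12% of nuclear genes with at least 50 CPM were 2-fold higher in the mitotic cells. The highest member was HMGA2 in the library labelled day 6, at 241 CPM in mitotic cells against 198 CPM in the others. Within cells of 5 to 25% mitochondrial UMIs that ratio was 1.18 (1.12 to 1.25). In the library labelled day 6, cells with a POU5F1 UMI among 1000 UMIs were compared with the other cells. The ratio was 0.926 to 1.04 for every member, and 0% of genes were 2-fold higher. POU5F1 itself, on which the cells were split, was only 1.84 times as high. The other cells still had 225 CPM of POU5F1, so the split does not set cells with POU5F1 against cells free of it. The 108 cells of that library with a PAX6 UMI among 1000 UMIs had 102 CPM of IGF2BP3. The other cells had 138 CPM, a ratio of 0.736 (0.599 to 0.894). With all UMIs, 575 cells of that library held a PAX6 UMI, so the other cells were not all free of it. The same split in the library labelled day 0 gave 1.13 (1.05 to 1.21), with 397 cells that had a PAX6 UMI among 1000, against 1458 with all UMIs. These intervals leave out the uneven spread of IGF2BP3 between cells, and the PAX6 split was not repeated within a mitochondrial band.

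By pattern over the 3 libraries, the 3 genes nearest to each member were taken among 4329 genes with at least 50 CPM, as the distance between log2(CPM + 1) values centred on each gene's mean. Those of LIN28A included DDR1 and SC5D. LIN28B was nearest to AKAP13, AMBRA1 and NBEA. HMGA1 was nearest to NUDC, G3BP1 and SSBP1, and HMGA2 to NPC2, TCF4 and LIN52. IGF2BP1 was nearest to SRRM2, MRPS33 and CRK, IGF2BP2 to DNAJC10, PANK3 and UBXN7, and IGF2BP3 to EIF5B, RLF and FAM60A. DDR1, a collagen receptor, was at 85.5, 83.8 and 151 CPM. With 3 values per gene such likeness is common: 127 genes lay within a distance of 0.2 of LIN28A and 220 to 513 genes within it of the other members. No member was among the 3 nearest genes of another.

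The partners of LIN28 in let-7 decay were mostly within 2-fold, as were most measured genes. Of all measured genes, 10.1% were 2-fold higher or more and 10% at 0.5 times or less for labelled day 2 over day 0. The shares were 8.39% and 6.25% for labelled day 6 over day 2 and 10.8% and 6.06% for labelled day 6 over day 0. Of 7 partners measured, 6 were between 0.5 and 2 times in each comparison. The exception for labelled day 2 over day 0 was ZCCHC11, the older symbol of TUT4, which adds uridines to let-7 precursors held by LIN28. Its levels were 164, 63.5 and 102 CPM, with a labelled day 2 over day 0 ratio of 0.388. The other was MSI1, an RNA-binding protein of neural stem cells known to work with LIN28, at 34.0, 35.7 and 74.2 CPM, 2.08 times as high in the library labelled day 6 as in that labelled day 2 and 2.18 times as high as in that labelled day 0. Of 15 measured genes of microRNA processing and argonaute proteins, AGO4 (45.7, 15.3 and 28.6 CPM) was at most 0.5 times for labelled day 2 over day 0. DGCR8, the partner of DROSHA, was at 27.5, 16.4 and 37.5 CPM, 2.28 times as high in the library labelled day 6 as in that labelled day 2. Median log2 ratios were 0.07, 0.22 and 0.31 for the LIN28 partners and -0.02, 0.13 and 0.04 for the processing genes.

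Of 6 host transcripts of let-7 found in the matrices, 3 were measured and none was 2-fold apart in any comparison. The same held for 69.1% of all measured genes. The protein-coding hosts had the most UMIs. HUWE1, a ubiquitin ligase gene that hosts let-7f-2 and miR-98, was at 108, 123 and 182 CPM, and WDR82, the host of let-7g, at 66.0, 67.0 and 79.2 CPM. MIR100HG, the host of let-7a-2, was at 12.1, 6.79 and 7.58 CPM and was the only noncoding host that passed 10 CPM. MIRLET7BHG, the host of let-7a-3 and let-7b, had 5, 8 and 10 UMIs. These 4 hosts were named after their values had been seen. Mature let-7 was not measured.

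Of 30 measured let-7 targets other than the members, 3 were 2-fold higher or more and 4 at 0.5 times or less for labelled day 2 over day 0, shares near the background of 10.1% and 10%. The counts were 3 and 2 for labelled day 6 over day 2, against 8.39% and 6.25% of all measured genes. For labelled day 6 over day 0 they were 4 and 2, against 10.8% and 6.06%. The highest ratios were those of MYC and MYCN, transcription factors of growth. MYC was at 7.48, 39.0 and 7.73 CPM and MYCN at 21.7, 105 and 72.7 CPM. FIGN, AAA ATPase family member fidgetin, was at 114, 38.2 and 90.9 CPM, and ARID3A, a DNA-binding protein, at 156, 56.9 and 75.8 CPM. CCND1, cyclin D1, had 58.6, 24.5 and 16.5 CPM, and SALL4, a stem cell transcription factor, 176, 158 and 369 CPM. Median log2 ratios of the list were -0.08, 0.31 and 0.14.

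Of the genes near the IGF2BP proteins in function, most m6A genes stayed within 2-fold, as most measured genes did, and a few IGF genes did not. Of 20 m6A writers, erasers and readers, 20 were within 2-fold for labelled day 2 over day 0 and for labelled day 6 over day 2, and 19 for labelled day 6 over day 0. The exception was ZC3H13, a subunit of the writer complex, at 169, 90.0 and 82.0 CPM. IGF2, whose message gave the IGF2BP family its name, had only 23, 13 and 26 UMIs, or 0.812, 0.630 and 0.630 CPM; it was below the measured level and was named after its values had been seen. Of 9 measured genes of IGF signalling, 1 was 2-fold higher or more and 1 at 0.5 times or less for labelled day 2 over day 0. The shares of all measured genes were 10.1% and 10%. The counts were 2 and 1 for labelled day 6 over day 2, against 8.39% and 6.25%. They were again 2 and 1 for labelled day 6 over day 0, against 10.8% and 6.06%. Counts this small are not read as a difference from the background. IGFBP5, which binds IGF outside the cell, differed most, at 136, 5.19 and 46.2 CPM. INSR, the insulin receptor, was at 59.2, 79.8 and 153 CPM, and IGFBP3 at 3.14, 3.01 and 23.7 CPM. Median log2 ratios were -0.07, 0.08 and 0.07 for the m6A genes and 0.27, -0.03 and 0.23 for the IGF genes. All 8 measured high mobility group genes other than the HMGA genes stayed within 2-fold in all 3 comparisons, as did 69.1% of all measured genes.

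Other oncofetal and growth genes included some with wide differences. Of 11 measured, 3 were 2-fold higher or more and 4 at 0.5 times or less for labelled day 2 over day 0, against 10.1% and 10% of all measured genes. The counts were 2 and 1 for labelled day 6 over day 2, against 8.39% and 6.25%, and 4 and 4 for labelled day 6 over day 0, against 10.8% and 6.06%. This list was chosen with earlier results of these data known, so no excess over the background is read from its counts. DLK1, a Notch-related surface protein of fetal tissues, was at 3137, 79.5 and 315 CPM in the day 0-, day 2- and day 6-labelled libraries. GPC3, a glypican of fetal liver and hepatocellular cancer, was at 1170.5, 176 and 175 CPM, and TPBG, the oncofetal trophoblast glycoprotein, at 178, 29.1 and 33.4 CPM. L1TD1, an RNA-binding protein of pluripotent cells, was at 8.82, 227 and 72.6 CPM. Of 22 measured RNA-binding proteins of stem and progenitor cells other than the members, 2 were 2-fold higher or more for labelled day 2 over day 0. None was at 0.5 times or less, and the background was 10.1% and 10%. The 2 were L1TD1 and ESRP1, an epithelial splicing factor (0.741, 124 and 19.7 CPM). The counts were 1 and 2 for labelled day 6 over day 2, against 8.39% and 6.25%. For labelled day 6 over day 0 they were 3 and 0, against 10.8% and 6.06%. The median log2 ratio was -0.13, 0.16 and -0.06 for these proteins. For the oncofetal genes it was -0.63, -0.01 and -0.58, against 0.01, 0.12 and 0.12 for all measured genes.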

How the data were processed

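The labels' protocols name inDrop and TruDrop, and the submitters' processing notes name STAR and hg38. How strand and duplicate reads were handled, and with which annotation, is not given in the sources used here. The authors deposited raw whole-number counts for each gene in each barcode, read here as UMI counts; every barcode had at least 100 genes. Cells with at least 1000 UMIs, 500 genes and at most 25% mitochondrial UMIs were kept. UMIs were summed per library and scaled to 1000000. Levels have exact Poisson, shares Clopper-Pearson and ratios conditional binomial 95% intervals, checked on simulated counts of 10574 genes. With 1 library per label no test was run. 2-fold and 10 CPM defined calls. Doublets were kept, since scrublet marked 5, 0 and 0 cells. Clusters came from scanpy 1.11.5 (2000 variable genes, 30 components, 15 neighbours, Leiden resolution 0.5) and served only to find cells of another library's clusters. All 7 members, their 3 most alike genes and, of each gene list, measured genes at least 2-fold apart could be named, up to 4 per list and comparison, with genes overlapping or copying a member. An alike gene of LIN28A is not reported here. Members and lists were chosen with earlier results of these data known. Figures and tables were made with Python 3.11.15, scipy 1.17.1 and matplotlib 3.10.9. Alternatives covered scaling (TMM from edgeR 4.0.16, median-of-ratios factors, totals leaving out mitochondrial and ribosomal protein genes), cell filters, thinning and thresholds.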

Additional observations from a re-analysis of the deposited data

How the results depend on the processing

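Each member's 3 ratios were recomputed under 13 other settings, which gave 273 values between 0.427 and 1.95. Of these, 143 lay inside the counting interval of the reported ratio and 130 outside, none reached 2-fold, and 2 were at most 0.5 times. Both belong to IGF2BP3 for labelled day 2 over day 0, which makes the count of members at most 0.5 times 1 in cells with at most 10% mitochondrial UMIs and 1 in cells with under 5%. With 1.5-fold in place of 2-fold, LIN28A raised the count of higher members to 1 for labelled day 6 over day 2 and to 1 for labelled day 6 over day 0. Some ratios moved to the other side of 1. For labelled day 2 over day 0 these were LIN28A under 4 settings, IGF2BP3 under 2 and IGF2BP1 under 1. For labelled day 6 over day 2 they were IGF2BP3 under 3 and IGF2BP2 under 2. For labelled day 6 over day 0 they were LIN28B and HMGA2 under 2 each. Not all of these ratios were near 1: IGF2BP3 for labelled day 6 over day 2 went from 0.775 to as high as 1.52. The settings of 10 to 25% and of under 5% mitochondrial UMIs were added after seeing the data. The scalings moved the median log2 ratio of all measured genes, with -0.08 as the largest shift. No paired analysis was possible because each label has 1 library and no test was run. Differences between libraries cannot be told apart from differences between single cultures.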
